A study of Mus musculus with 3 samples.

Results

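The clustered protocadherins are a family of cell adhesion genes that lie side by side in 3 clusters, alpha, beta and gamma, on mouse chromosome 18. All genes on chromosome 18 whose symbol begins with Pcdha, Pcdhb or Pcdhg in GENCODE M21 (genome build GRCm38) were taken, which gave 58 genes, 14 alpha, 22 beta and 22 gamma. Of the 1186323 windows of 2 kb in the H3K36me3 table, 269 overlapped at least 1 of these genes. The alpha cluster (bases 36930184 to 37187661, 257 kb) held 113 of these windows, the beta genes (37264938 to 37524479, 260 kb) held 65 and the gamma cluster (37661793 to 37841873, 180 kb) held 91. In the alpha and gamma clusters each gene runs to a shared end, so the windows covered the clusters throughout, whereas the beta windows covered the single-exon genes and not the space between them. A further 16 windows of the 2 kb grid over the alpha genes were not among the windows the authors kept after their filter on input signal, and none were missing over the beta or gamma genes.

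The samples were 3 replicates of 1 group, germinal vesicle (GV) oocytes, the full-size oocytes that are still arrested in meiotic prophase, from wildtype C57BL6/Babr mice aged 25 days, with about 280 oocytes pooled in each replicate. The mark was measured by ultra-low-input native chromatin immunoprecipitation, in which unfixed chromatin is cut with micrococcal nuclease before the antibody is added, and less antibody went into replicate 2 than into replicates 1 and 3. Values are RPKM, read density scaled to window length and to the size of the library. For each window the files also give a call for the presence of H3K36me3, H3K4me3 and H3K27me3, where the last 2 marks come from earlier libraries of the same laboratory and have 1 call per window without a level or a replicate.

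Clustered protocadherins are best known from neurons, where different combinations of them on the cell surface give each cell an identity. In the alpha and gamma clusters every gene has its own promoter and its own large variable exon, which encodes the extracellular and transmembrane part of the protein and is spliced to constant exons shared by the whole cluster, which encode the common part of the cytoplasmic tail. Beta genes have no constant exons. H3K36me3 is placed on gene bodies during transcription by RNA polymerase II, and H3K27me3 is the product of Polycomb repressive complex 2. H3K4me3 marks promoters and CpG-rich sequence, and in oocytes it also forms broad domains over untranscribed regions without DNA methylation. In growing oocytes, regions with H3K36me3 are those that become DNA methylated.

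H3K36me3 was low over the protocadherin genes as a whole. Their windows averaged 0.446, 0.441 and 0.365 RPKM in replicates 1, 2 and 3, against 1.20, 1.21 and 1.25 RPKM in the 610535 windows that overlap any other annotated gene. The protocadherin level was lower in every replicate, with a within-replicate log2 ratio of -1.56 ± 0.19 (SD, n = 3), and from 1473 reads the pooled read ratio was 0.351 with a 95% exact binomial interval of 0.333 to 0.369. The exact two-sided sign-flip permutation test over the 3 replicates gave p = 0.25, the smallest value that 3 replicates allow, and 0.333 after Benjamini-Hochberg adjustment over the 8 contrasts tested. No contrast below can therefore pass a threshold of 0.05, and the read intervals cover counting error only.

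In calls, 23 of the 269 protocadherin windows (8.55%) were enriched for H3K36me3, beside 31.8% of all windows. The authors' threshold is an RPKM above 1, and the calls matched a mean above 1 RPKM over the replicates in all windows. H3K27me3 was called in 172 (63.9%), beside 30% of all windows, and H3K4me3 in 114 (42.4%), beside 28.3%. The pair of H3K4me3 and H3K27me3 without H3K36me3 was called in 74 (27.5%), beside 8.94%, and 51 windows (19.0%) had no call, beside 26.6%. Both H3K36me3 and H3K27me3 were present in 12 windows (4.46%), beside 2.57%. A pair of marks called in the same window of pooled oocytes may lie on different nucleosomes, alleles or cells, and these cannot be told apart here.

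**Figure D1:**
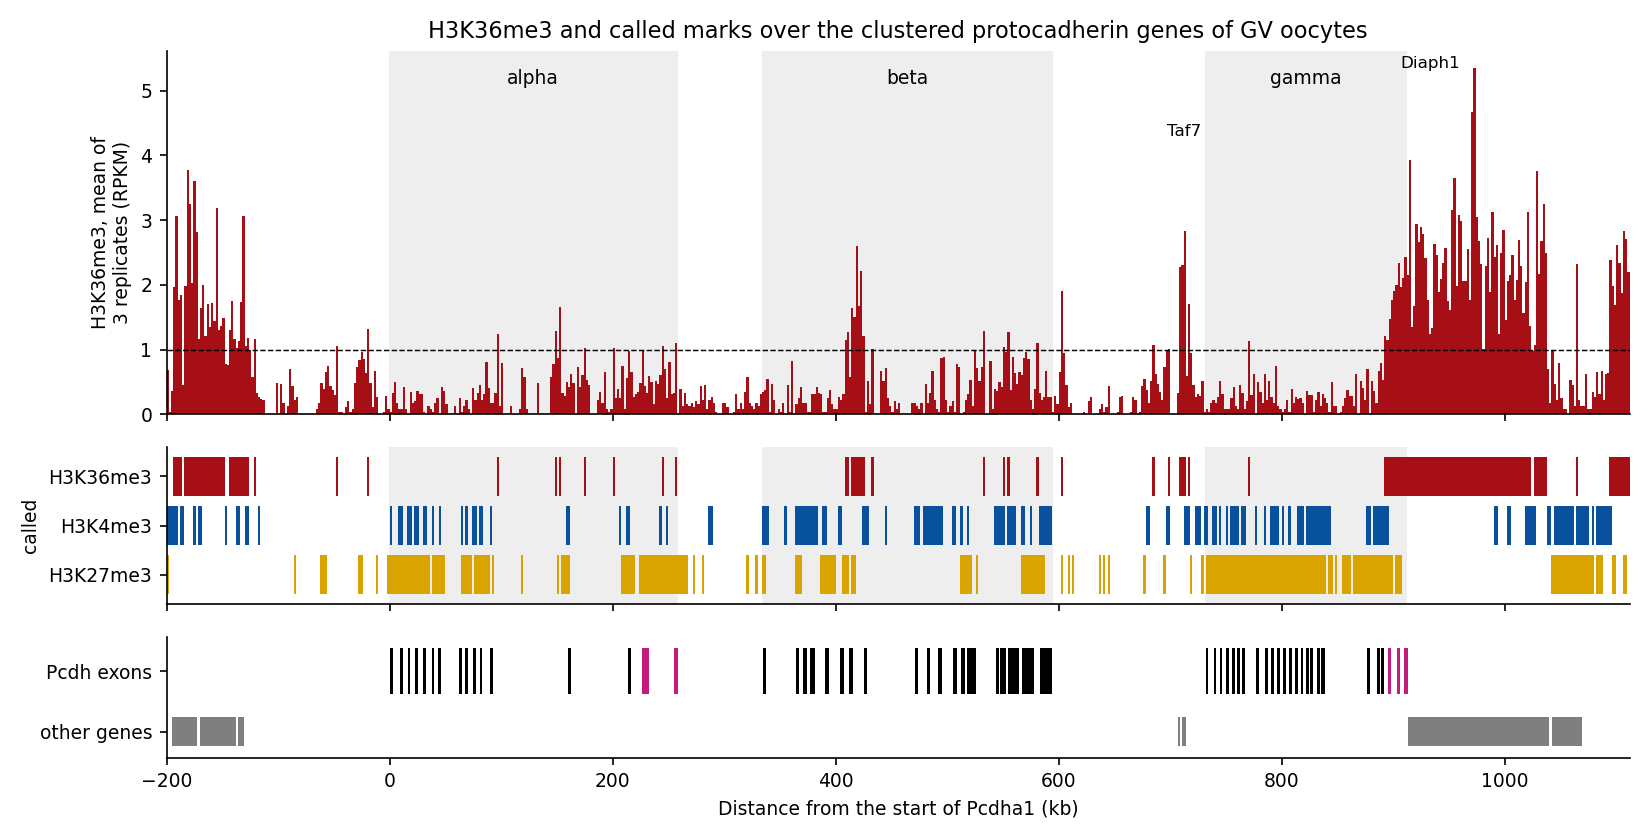
H3K36me3 and mark calls along the locus. The x axis gives the distance from the start of Pcdha1 in kb. Top, mean H3K36me3 of 3 replicates in each 2 kb window (RPKM), with the threshold of 1 RPKM as a dashed line and the 3 clusters shaded. Middle, windows called for each mark. Bottom, variable exons and beta coding exons (black), constant exons (magenta) and other genes within 200 kb (grey). H3K36me3 stays mostly under 1 RPKM through the clusters and in the stretch just upstream of Pcdha1, is higher farther upstream and downstream of gamma, and rises over the end of the gamma cluster and around Pcdhb7 and Pcdhb8.

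Depth limits what can be said of a single window. The protocadherin windows held 884, 299 and 290 reads in replicates 1, 2 and 3 of 7888140, 2692510 and 3166564 in the whole table, and 32, 146 and 141 of the 269 windows had no read. With 0 reads, a window could still have a level of up to 0.407, 1.19 or 1.02 RPKM in replicates 1, 2 and 3 (the worth of 3 reads), so in the shallower libraries an empty window does not show a level under the threshold of 1 RPKM. The Pearson correlation between replicates over the 269 windows was 0.43, 0.45 and 0.28 for the pairs 1 and 2, 1 and 3, and 2 and 3. Of the cell type markers, all 5 oocyte genes (Gdf9, Bmp15, Zp3, Kit and Nlrp5) had gene-body means above 1 RPKM, from 1.53 to 3.73, and so did 1 of 5 granulosa cell markers, Amh, at 1.39. The other 4 (Fshr, Foxl2, Cyp19a1 and Inha) lay between 0.353 and 0.714. Over all protein-coding genes, 52.5% had a gene-body mean above 1 RPKM.

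Variable exons of the alpha cluster carried almost no H3K36me3. The 32 windows over these exons had 0.382, 0.173 and 0.212 RPKM in replicates 1, 2 and 3, from 124 reads in all, and none was called for the mark. They were instead marked by H3K27me3 in 27 windows (84.4%) and by H3K4me3 in 21 (65.6%), with both in 19. All 14 alpha variable exons had at least 1 window with H3K4me3 and at least 1 with H3K27me3, and in 13 of them a single window had both. The window that holds the start of the exon was called for both marks in 8 of the 14. Counts per exon and per start window, here and for beta and gamma below, were not made for other genes. They describe these exons only.

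Among the alpha genes the lowest exon was that of Pcdha5 (bases 36960440 to 36962785), at 0.068, 0 and 0 RPKM, which is 1 read over the 3 replicates. Pcdha2 had 0.272, 0 and 0 RPKM and Pcdha6 had 0.317, 0 and 0 RPKM, so that in these 3 genes all reads came from replicate 1, the most deeply sequenced library. The symbol Pcdha11 is given to 2 neighbouring genes in the annotation. The second of them (ENSMUSG00000102206.5, exon at 37010752 to 37013251) had the third highest alpha level, at 1.02, 0 and 0 RPKM, again with reads in replicate 1 only. The first (ENSMUSG00000007440.10) had 0.407, 0.198 and 0.338 RPKM.

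The highest alpha exons were those of the C-type genes, Pcdhac1 and Pcdhac2, which lie between the 12 numbered genes and the constant exons and which neurons express more uniformly than the other members. Pcdhac2 (exon at 37143503 to 37146530) had 0.724, 0.793 and 0.677 RPKM in the 3 replicates, and its 3 windows were all called for H3K27me3 and 2 of them for H3K4me3. Pcdhac1 (exon at 37090013 to 37092571) had 0.883, 0.198 and 0.508 RPKM. The 5 C-type exons of both clusters together (12 windows) had 0.622, 0.793 and 0.423 RPKM, and the other 31 alpha and gamma exons (70 windows) had 0.305, 0.187 and 0.145 RPKM. The C-type level was thus higher in each replicate, a comparison that was made after the values were seen and was not tested.

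Beta exons differed from alpha and gamma exons in their mark calls. H3K4me3 was called in 46 of the 65 beta windows (70.8%) and H3K27me3 in 24 (36.9%). H3K4me3 alone was called in 30 beta windows (46.2%), beside 14.3% of all windows. It was called alone in 2 of 32 alpha (6.25%) and 1 of 50 gamma (2%) variable exon windows. Counted over any overlapping window, H3K4me3 was present without H3K27me3 on 11 of the 22 beta exons, and on 0 of 14 alpha and 0 of 22 gamma exons. These shares are descriptions of 1 call per window, with no replicate to test them.

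The 2 kinds of beta gene formed blocks along the cluster. Pcdhb1 and Pcdhb2 had both marks, Pcdhb3 and Pcdhb4 had H3K4me3 only, and Pcdhb5 and Pcdhb6 had both. Pcdhb8 to Pcdhb12 had H3K4me3 without H3K27me3, with no H3K27me3 call in any of the 34 windows kept in that stretch. Of its 41 grid windows, 7 between the genes were not among those the authors kept. Pcdhb13 and Pcdhb14 had both marks, Pcdhb15 to Pcdhb18 again had H3K4me3 without H3K27me3, and Pcdhb19 to Pcdhb22 had both. In Pcdhb22 H3K27me3 was called in 1 of 5 windows, the one at its start, which also overlaps Pcdhb21. An exon is counted here for a mark if any window that overlaps it has the call. Pcdhb7 was the only protocadherin of the 58 without an H3K4me3 window.

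Pcdhb7 (ENSMUSG00000045062.4, 37341702 to 37345202) was also the only gene of the family with an exon mean above 1 RPKM, at 0.724, 1.98 and 0.790 RPKM from 38 reads. Its value was above 1 in replicate 2 and below 1 in the other two, and without replicate 2 it would not pass the threshold. A consecutive run of 6 windows called for H3K36me3 (37344001 to 37356000) began in this gene and ended at the start of Pcdhb8. The run had 1.49, 1.45 and 2.48 RPKM in replicates 1, 2 and 3, and 2 of its windows were above 1 RPKM in all 3. Most of it lay between the genes. The 7 windows with their midpoint from Pcdhb7 to just before Pcdhb8 had 1.36, 1.42 and 2.13 RPKM, and were thus above 1 in each replicate.

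The next highest beta exons were Pcdhb17, with 0.453, 1.19 and 0.902 RPKM, and Pcdhb16, with 1.02, 0.595 and 0.592 RPKM. Each of them held 1 window called for H3K36me3 together with H3K4me3. The lowest beta exons were Pcdhb13, with 0.272, 0 and 0 RPKM, Pcdhb3, with 0.272, 0.132 and 0 RPKM, and Pcdhb5, with 0.272, 0 and 0.169 RPKM. All 3 of these had H3K4me3, and Pcdhb5 and Pcdhb13 had H3K27me3 as well.

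Gamma variable exons were the most evenly marked. H3K27me3 was called in 49 of 50 windows (98.0%) and H3K4me3 in 39 (78.0%), with both and no H3K36me3 in 37. Each of the 22 gamma exons had a window with both marks, and 19 of the 22 had both in the window that holds the exon start. A single unbroken run of 54 windows with H3K27me3 (108 kb, 37662001 to 37770000) held the 19 variable exons from Pcdhga1 to Pcdhga12, except the first window of Pcdhga1, which had H3K4me3 alone. H3K36me3 in the 50 windows was 0.331, 0.341 and 0.169 RPKM from 190 reads, and 1 window was called for it. The 3 lowest exons, Pcdhga1, Pcdhgb5 and Pcdhgb1, had 4, 3 and 4 reads, all in replicate 1. Pcdhga7, the highest exon of the A and B types, had 0.339, 0.595 and 0.338 RPKM.

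**Figure D2:**
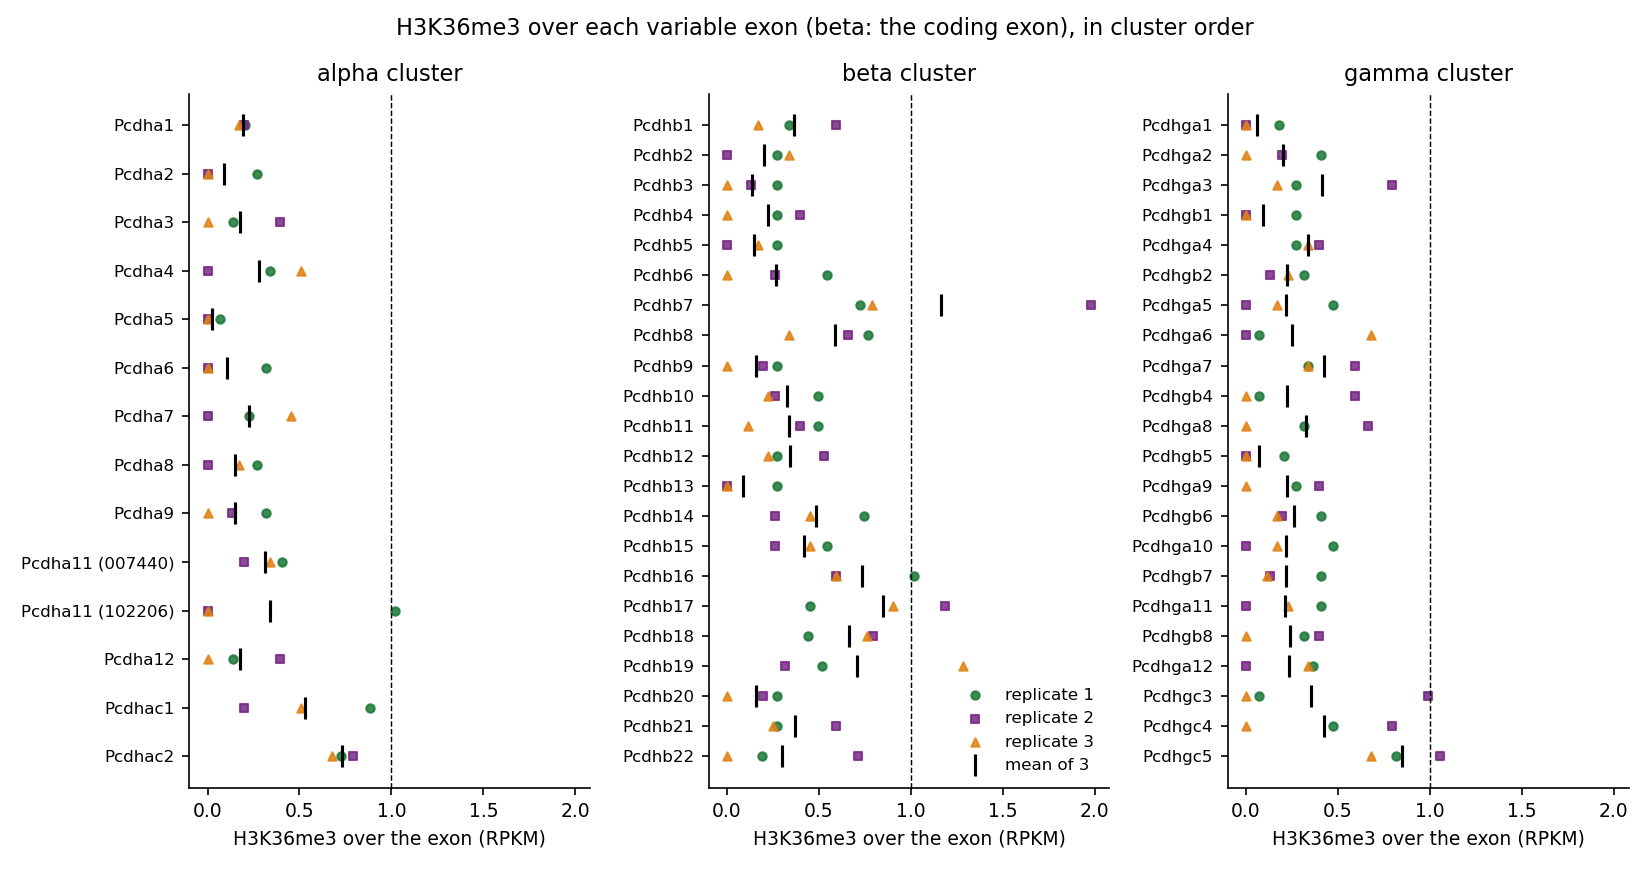
H3K36me3 over the variable exon of each alpha and gamma gene and the coding exon of each beta gene, listed in their order along the chromosome. Points give the 3 replicates (circle, square and triangle for replicates 1, 2 and 3), the vertical tick their mean, and the dashed line the threshold of 1 RPKM. The mean of Pcdhb7 (1.17 RPKM) is the only one above the threshold, and most exons lie below 0.5 RPKM.

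Gamma C-type exons lay after the other gamma exons and next to the constant exons. Pcdhgc3 had 0.068, 0.991 and 0 RPKM, Pcdhgc4 had 0.475, 0.793 and 0 RPKM, and Pcdhgc5 (37819513 to 37822134) had 0.815, 1.06 and 0.677 RPKM. In Pcdhgc3 and Pcdhgc4 replicate 2 was highest and replicate 3 held no read. All 7 windows over the 3 exons had both H3K4me3 and H3K27me3, and the last window of Pcdhgc5 also had H3K36me3.

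At the constant exons the alpha and gamma clusters parted. The 4 windows over the gamma constant exons had 1.80, 2.28 and 1.69 RPKM in replicates 1, 2 and 3, and all 4 were called for H3K36me3. Gamma constant exon windows were higher than gamma variable exon windows in every replicate, with a log2 ratio of 2.83 ± 0.45 (SD, n = 3; exact permutation p = 0.25, adjusted 0.333) and a read ratio of 6.32 (95% interval 4.89 to 8.11). The 5 intron windows between the gamma constant exons had 1.77, 2.22 and 1.69 RPKM, so the level was not confined to the exons. The 4 windows over the alpha constant exons had 0.577, 0.991 and 0.592 RPKM. They were higher than alpha variable exons in every replicate, with a log2 ratio of 1.53 ± 0.96 (SD, n = 3; exact permutation p = 0.25, adjusted 0.333), and the read ratio of 2.19 (95% interval 1.45 to 3.23) rested on 34 and 124 reads. Gamma constant exons were above alpha constant exons in every replicate, with a log2 ratio of 1.45 ± 0.23 (SD, n = 3; exact permutation p = 0.25; read ratio 2.82, 95% interval 1.89 to 4.31), a contrast that was added after the values were seen.

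Each constant exon had its own values. Gamma constant exon 1 (59 bp, 37825021 to 37825079) lay in a window with 1.77, 0 and 1.69 RPKM and all 3 marks. Gamma constant exon 2 (89 bp, 37833265 to 37833353) lay in a window with 1.36, 3.96 and 0.677 RPKM, called for H3K36me3 and H3K27me3. The 2 windows of gamma constant exon 3 (1971 bp, 37839903 to 37841873), which holds the shared 3′ end, had 2.04, 2.58 and 2.2 RPKM and were called for H3K36me3 alone. Replicates differed by the most in the first 2, where a window held 0 to 13 reads.

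Alpha constant exon 1 (59 bp, 37156155 to 37156213) lay in a window with 0.679, 1.98 and 0.338 RPKM, a mean just under the threshold of 1. Alpha constant exon 2 (89 bp, 37159265 to 37159353) had 0.543, 0.793 and 0 RPKM. The 2 windows of alpha constant exon 3 (2712 bp, 37184946 to 37187657) had 0.543, 0.595 and 1.02 RPKM, and 1 of them was called for H3K36me3. All 4 windows were called for H3K27me3 and none for H3K4me3. From the first to the last constant exon, 16 of 16 alpha windows and 6 of 9 gamma windows had H3K27me3, whereas 2 of 16 and 9 of 9 had H3K36me3.

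**Figure D3:**
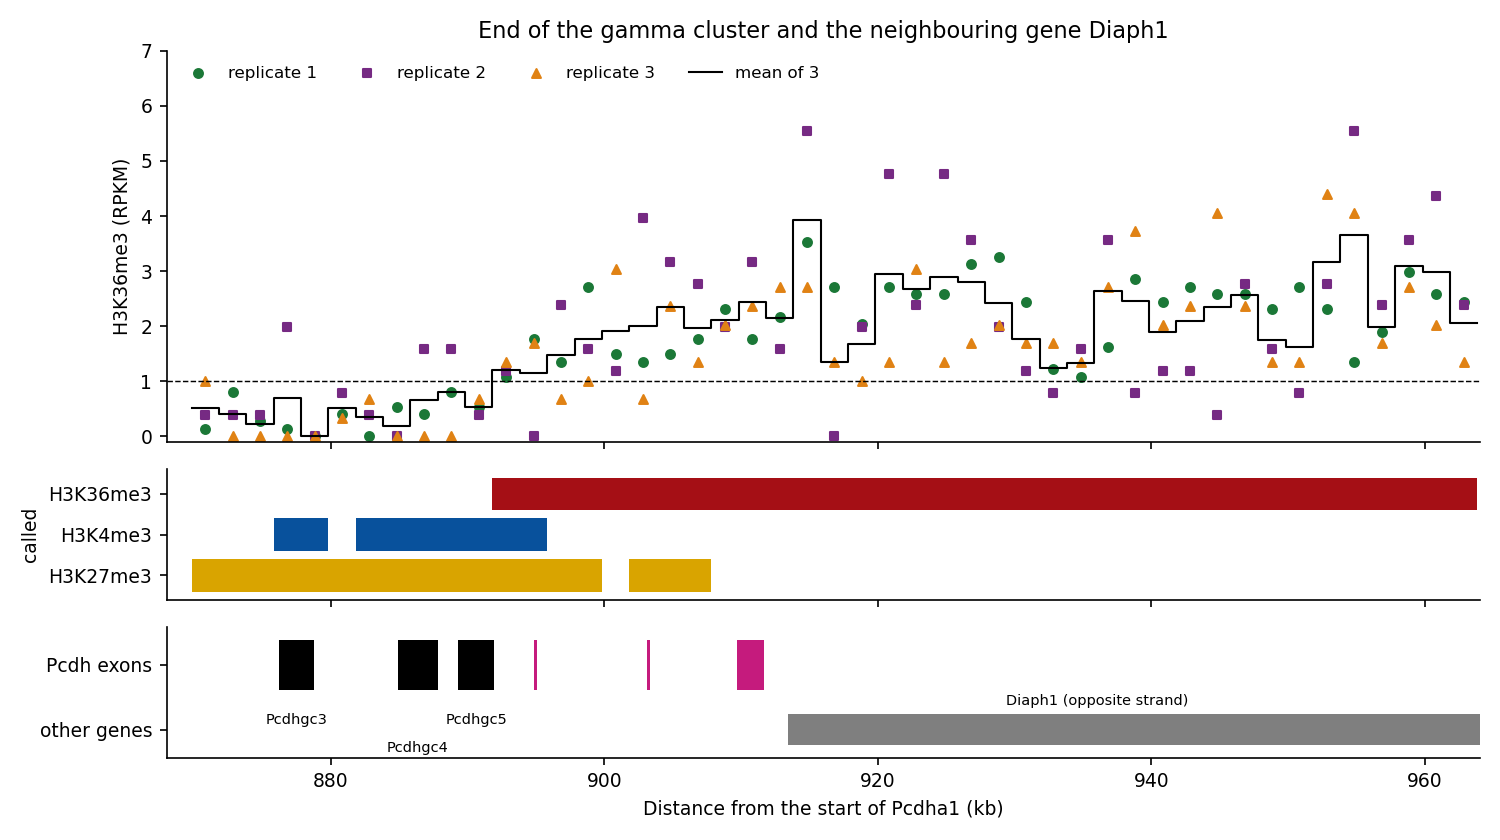
The end of the gamma cluster and the start of the signal over Diaph1. The x axis gives the distance from the start of Pcdha1 in kb. Top, H3K36me3 of each replicate (points) and their mean (line) in each 2 kb window (RPKM), with the threshold of 1 RPKM dashed. Middle, windows called for each mark. Bottom, variable exons (black), constant exons (magenta) and Diaph1 (grey). The mean passes 1 RPKM at the last window of Pcdhgc5 and stays above it through the constant exons and into Diaph1, while H3K27me3 calls go on, with a gap of 1 window, up to constant exon 3.

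The H3K36me3 of the gamma constant exons was continuous with that of the next gene. Diaph1, a formin that promotes actin assembly, lies on the opposite strand (37843601 to 37935476), so its 3′ end faces the 3′ end of the gamma cluster. A run of 66 consecutive windows called for H3K36me3 (132 kb, 37822001 to 37954000) took in the last 10 gamma windows, all 47 windows of Diaph1 and most of Hdac3, a histone deacetylase gene. The 10 gamma windows of the run had 1.71, 2.14 and 1.66 RPKM and the 81 gamma windows before it had 0.337, 0.299 and 0.188 RPKM. Diaph1 had 2.31, 2.69 and 2.30 RPKM. The gamma constant exon windows were lower than the Diaph1 windows in every replicate, with a log2 ratio of -0.35 ± 0.10 (SD, n = 3; exact permutation p = 0.25) and a read ratio of 0.784 (95% interval 0.631 to 0.965), again compared after the values were seen. ChIP reads carry no strand of transcription, so which of the facing genes the H3K36me3 belongs to cannot be told apart. H3K27me3 was called in 7 of the 10 gamma windows of the run and in 0 of the 47 Diaph1 windows.

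The mean levels of the 3 clusters, over all windows of their genes, were close to each other. Alpha and gamma windows include introns and constant exons, whereas beta windows are those over the exons. The alpha, beta and gamma clusters had 0.381 ± 0.019, 0.440 ± 0.052 and 0.446 ± 0.084 RPKM (SD, n = 3). Alpha was below beta in 3 of 3 replicates (log2 ratio -0.20 ± 0.16, and -0.12 without replicate 2; exact permutation p = 0.25, adjusted 0.333) and below gamma in 2 of 3 (-0.21 ± 0.26; exact permutation p = 0.5, adjusted 0.571), and gamma and beta differed by 0.01 ± 0.11 (exact permutation p = 1). Without the windows of the run, the log2 ratios were 0.51 ± 0.40 for alpha against gamma and -0.72 ± 0.28 for gamma against beta. The run was chosen by its H3K36me3 level and taken from gamma only, which by itself lowers gamma, so these values are a description without a test. On exon windows alone, beta had 0.464, 0.476 and 0.380 RPKM in replicates 1, 2 and 3. Variable exon windows had 0.382, 0.173 and 0.212 RPKM in alpha and 0.331, 0.341 and 0.169 RPKM in gamma. Beta exons were thus higher in each replicate, which was not tested.

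Windows without an exon had different marks from those on exons. Over the spans of the 3 clusters, the 147 variable exon windows had 0.401, 0.364 and 0.272 RPKM of H3K36me3 and the 171 windows without exon had 0.432, 0.443 and 0.485 RPKM. The exon windows were lower in each replicate, by a margin that ranged widely (log2 ratio -0.41 ± 0.38, SD, n = 3; exact permutation p = 0.25, adjusted 0.333; read ratio 0.815, 95% interval 0.739 to 0.900). The sign was not the same in all replicates once the run at the gamma end was left out (log2 ratio -0.29 ± 0.42; exact permutation p = 0.5), and without replicate 3 the log2 ratio was -0.20. H3K4me3 was called in 72.1% of the exon windows and in 9.94% of the windows without exon. H3K27me3 was called in 68.0% and 44.4%, and no mark in 7.48% and 43.3%.

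The windows without exon were themselves unlike between clusters. In the gamma cluster 83.8% of the 37 windows had H3K27me3, in the alpha cluster 45.5% of 77, and between beta genes 17.5% of 57. The stretch of the alpha cluster from Pcdhac1 to Pcdhac2 had no call in 19 of its 27 windows, and the stretch before it, from Pcdha12 to Pcdhac1, had none in 13 of 22 and lacked 12 windows of the grid. All 5 of the alpha windows called for H3K36me3 alone lay in these 2 stretches, none next to another, and none was above 1 RPKM in all 3 replicates. In the whole family 8 of the 23 called windows were above 1 RPKM in each replicate, and 7 of these 8 were in the gamma cluster.

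**Figure D4:**
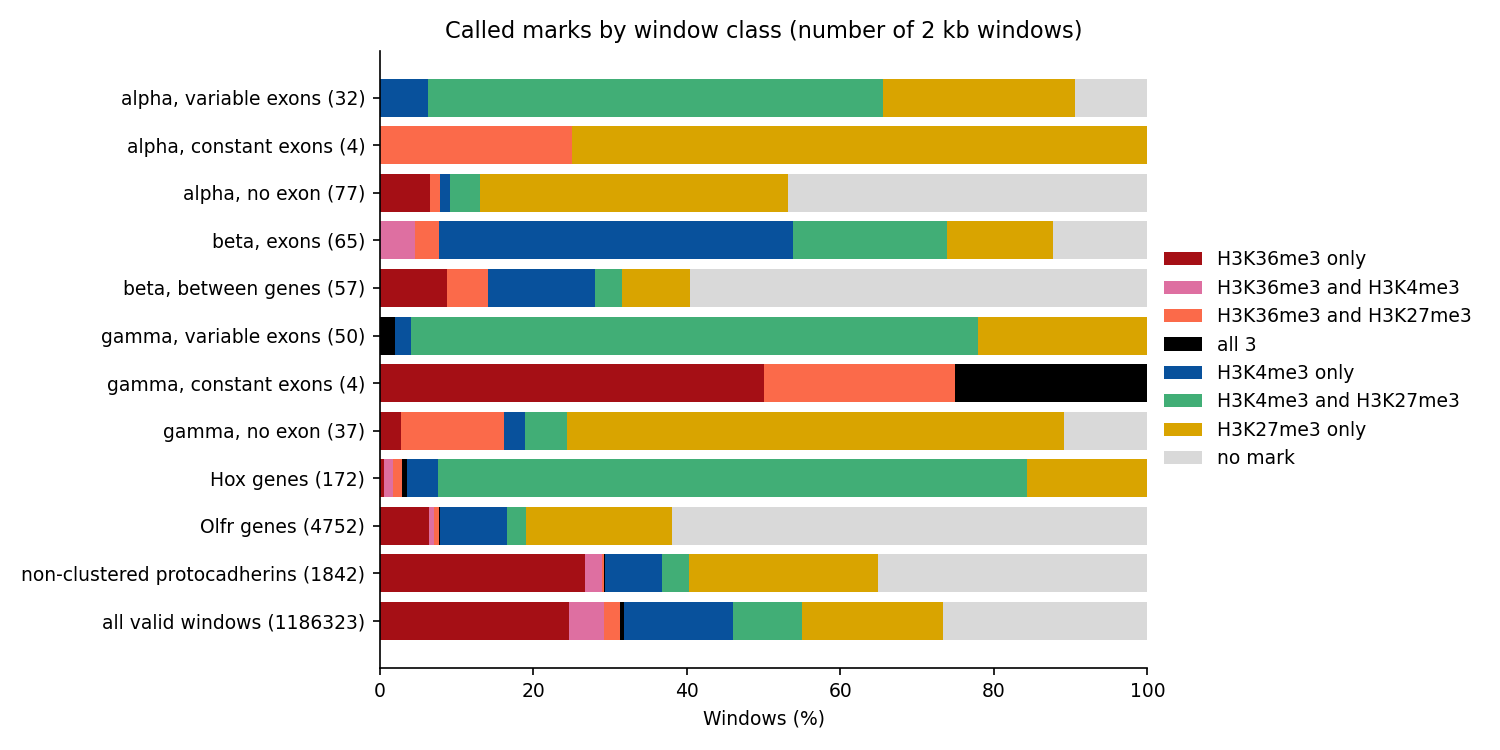
Share of windows (%) with each combination of called marks, for classes of protocadherin windows and, below, Hox genes, olfactory receptor (Olfr) genes, protocadherins outside the clusters and all windows. The number of windows is in parentheses. Alpha and gamma variable exons are mostly called for H3K4me3 and H3K27me3 together, as Hox genes are, beta exons most often for H3K4me3 alone (46.2%), and the 4 gamma constant exon windows all for H3K36me3.

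Variable exon windows had on average a higher CpG frequency than all windows, a property that the choice of genes did not use. The observed over expected frequency of CpG dinucleotides, which is depleted in most of the genome, averaged 0.535 in alpha, 0.473 in gamma and 0.314 in beta exon windows, against 0.177 in all windows. Hox gene windows averaged 0.404, so a raised value was not particular to the protocadherins. Variable exon windows called for H3K4me3 had a median of 0.454 (n = 106) and those without the call 0.288 (n = 41). Their ranges overlapped, from 0.0560 to 0.842 and from 0.0527 to 0.763. The gamma and alpha constant exon windows averaged 0.210 and 0.246. No base sequence is shown for these genes.

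Repeated sequence among the genes could cost reads. Of all 75-base stretches in the variable exons, 8.64% in alpha, 1.21% in beta and 2.53% in gamma occurred again within the locus on either strand. The share was highest in Pcdha6, at 18.2%, and it was 7.44% in the 7 gamma B-type genes and 0.404% in the 12 A-type genes. All 5 C-type exons had none. Reads from such stretches may be placed on a paralogue or lost, so the differences between C-type and other exons stand beside this difference in repeats, whose part was not tested.

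Other tandem gene families had H3K36me3 levels close to those of the protocadherins, with different calls. The 172 windows of 39 Hox genes, which set positional identity, had 0.386, 0.362 and 0.331 RPKM, with H3K27me3 in 94.2% and H3K4me3 in 82.6%. The 4752 windows of 1135 Olfr genes, which encode odorant receptors, had 0.397, 0.376 and 0.345 RPKM, with H3K27me3 in 22.3%, H3K4me3 in 11.9% and no mark in 61.9%. Protocadherin windows were slightly higher than both in each replicate, with log2 ratios of 0.21 ± 0.07 and 0.16 ± 0.07 (SD, n = 3; exact permutation p = 0.25 for each, added after the values were seen, as was the next comparison). The protocadherin windows include the 10 gamma windows of the run into Diaph1, which had 1.71, 2.14 and 1.66 RPKM. These small differences were not computed without that run, so they are not a trait of the family as a whole.

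The 12 protocadherin genes outside the clusters are encoded elsewhere and lack the variable and constant exon arrangement. Their 1842 windows had 0.841, 0.828 and 0.796 RPKM, so the clustered genes were lower in every replicate (log2 ratio -0.98 ± 0.12, SD, n = 3; exact permutation p = 0.25). Most of this level came from Pcdh15, a component of hair cell tip links, with 1.50, 1.48 and 1.57 RPKM over 744 windows. Pcdh10 had 1.27, 1.50 and 1.35 RPKM and no H3K27me3 window. The other 10 had means between 0.196 and 0.567 RPKM. Their share of windows with H3K27me3 ranged from 1.73% (Pcdh11x) to 100% (Pcdh8), beside 30% of all windows. For H3K4me3 it ranged from 3.26% (Pcdh9) to 100% (Pcdh8), beside 28.3%. Pcdh15 had H3K27me3 in 1.61% and H3K4me3 in 13.8% of its windows.

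The flanks of the locus were higher in H3K36me3 on average, unevenly on the 2 sides. The 193 windows within 200 kb on both sides had 1.29, 1.42 and 1.41 RPKM, and the protocadherin windows were lower in each replicate (log2 ratio -1.72 ± 0.21, SD, n = 3; exact permutation p = 0.25, adjusted 0.333; read ratio 0.317, 95% interval 0.298 to 0.337). Downstream, the flank had a mean of 1.83 RPKM and 72.0% of its windows were called for H3K36me3. Upstream it had 0.882 RPKM, with 36.6% called, close to all windows (0.902 RPKM and 31.8%). The upstream signal lay far from the clusters. The 58 windows in the 131 kb between the end of Zmat2 and Pcdha1 had 0.339, 0.424 and 0.379 RPKM, near the level of the protocadherin windows, with 5 called for H3K36me3 and 44 for no mark. The 35 windows of the flank before that had 1.52, 1.52 and 2.10 RPKM.

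Of the 18 other protein-coding genes within 200 kb of the clusters, between them or across them, 14 had a gene-body mean above 1 RPKM. The share over all protein-coding genes was 52.5%. The 4 genes not above 1 RPKM were Arap3 and 3 readthrough genes, whose windows are largely those of the protocadherins and the spacers. Upstream, and at least 131 kb from Pcdha1, Tmco6, Ndufa2, Ik, Wdr55, Dnd1, Hars, Hars2 and Zmat2 had means from 1.13 RPKM (Hars2) to 2.56 RPKM (Ik), with no H3K27me3 window. Between the beta and gamma clusters, Taf7, which encodes a subunit of the general transcription factor TFIID, had 1.81, 1.45 and 2.48 RPKM, and Slc25a2, a mitochondrial carrier, had 0.883, 2.18 and 0.846 RPKM. Both lie on the strand opposite to the protocadherins, and H3K27me3 was called in none of their windows. Downstream of Diaph1, Hdac3, Rell2 and Fchsd1 had means of 2.05, 1.94 and 2.30 RPKM without H3K27me3. Arap3, the farthest, had 0.592, 0.538 and 0.314 RPKM, with H3K27me3 in all 14 windows. The 3 readthrough genes among the 18, Gm42416, Gm37013 and Gm37388, span most of the locus. Their means of 0.409 to 0.422 RPKM over 390 to 405 windows rest largely on the protocadherin windows and the spacers between them.

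Of 20 genes for proteins that act on the protocadherin clusters in other cells, 17 had a gene-body mean above 1 RPKM, beside 52.5% of all protein-coding genes. They include Ctcf (2.31 RPKM), which binds the promoters of the alternate exons, the cohesin genes Rad21 (2.03), Smc1a (2.75) and Smc3 (2.07), the repressor Smchd1 (2.39), the DNA methyltransferase gene Dnmt3b (2.50), the histone methyltransferase genes Setdb1 (2.47) and Ezh2 (2.38), and Setd2 (2.56), whose product places H3K36me3. Below 1 RPKM were Wiz (0.985), Stag2 (0.936) and Trim28 (0.884). H3K27me3 was called in 7 of 15 windows of Wiz, 2 of 55 of Dnmt3a, 1 of 17 of Trim28 and 1 of 178 of Stag1. The other 16 genes had no such window. Over all windows the call was present in 30%, but the share of all protein-coding genes without such a window was not computed.

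**Figure D5:**
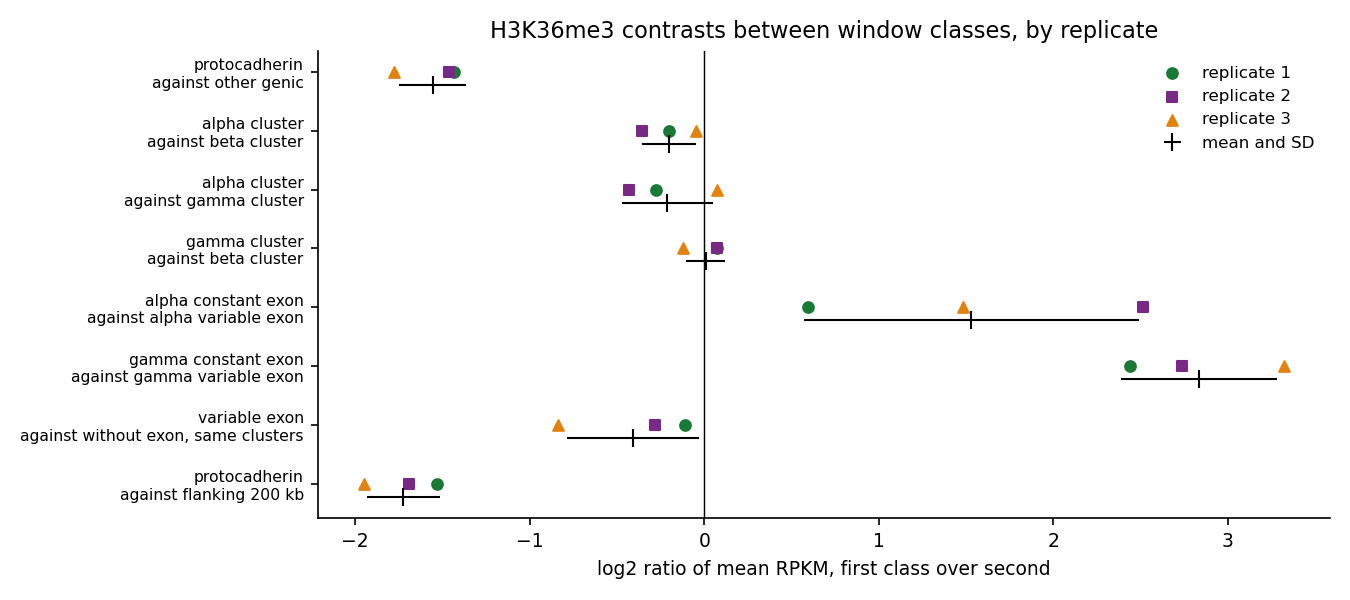
The 8 contrasts of H3K36me3 between classes of windows. Each point is the log2 ratio of mean RPKM of the first class over the second within 1 replicate, and the bar below gives the mean and SD of the 3. Gamma constant against variable exons is the largest (2.83). Protocadherin windows lie below other genic windows and below the flanks in all replicates. Contrasts between clusters, over all windows of their genes, lie near 0.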

How the data were processed

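Native ChIP-seq reads of 3 replicates were, per the labels, mapped with Bowtie2 2.2.9 to GRCm38. The authors counted reads in 2 kb windows as RPKM, dropped windows with too little or too much input signal and deposited the rest. Whether duplicate reads were removed is not given in the sources used here. The authors' second file names the marks called in each window (an RPKM above 1), and its H3K36me3 calls matched a 3-replicate mean above 1 RPKM in all windows.

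Every deposited RPKM value was a whole multiple (within 0.01) of the smallest positive value of its replicate, which gave the reads. Windows were assigned by any overlap with genes of GENCODE M21. A constant exon was one shared by at least 10 genes of its cluster, and the variable exon was the longest other exon of a transcript spliced to it. RPKM was averaged over windows and compared within replicates as log2 ratios with an exact two-sided sign-flip permutation test over the 3 replicates (Benjamini-Hochberg over 8 contrasts). The 3 samples carry a replicate number only, so p-values measure the spread between these samples. Read ratios have exact (Clopper-Pearson) 95% intervals. CpG frequency and repeats came from RefSeq's GRCm38.p6 sequence. Python 3.11.15, pandas 2.3.3 and scipy 1.17.1 were used, and the contrast code was tested on simulated reads.

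Members and gene lists were chosen with earlier results of these data known. Named were the 3 highest and 3 lowest exons of each cluster, C-type genes, constant exons, protein-coding neighbours within 200 kb, protocadherins outside the clusters above 1 RPKM and regulators below it. Genes named beyond this rule were chosen after their values were seen.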

Additional observations from a re-analysis of the deposited data

How the results depend on the processing

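Over 52 alternatives for the 8 level contrasts, 48 kept the direction. Both contrasts with the gamma cluster moved when the run at its end, chosen by its level after seeing the data, was left out of gamma alone: alpha against gamma went from -0.21 to 0.51 and gamma against beta from 0.01 to -0.72. Leaving out 1 replicate moved gamma against beta between -0.0237 and 0.074, below 0 without replicate 1 or without replicate 2. The midpoint rule, pooled reads, chromosome 18 alone, leaving out the C-type genes, either flank alone and all windows from the first to the last constant exon reversed none. For exons the midpoint rule asked for 500 bp of overlap, which left only 2 alpha and 1 gamma constant exon windows. The median over windows gave no value, since the median was 0 in the shallower replicates.

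Counts of H3K36me3 windows depended on the threshold. From 23 of 269 at a mean above 1 RPKM, the number went to 73 at 0.5, 9 at 1.5 and 3 at 2, to 8 when each replicate had to pass and to 14 with a running mean of 5 windows, and it was 23 to 30 when 1 replicate was left out. Of the 9 windows from the first to the last gamma constant exon, 7 passed 1.5 and 3 passed 2. H3K27me3 (172 windows) and H3K4me3 (114) went to 168 and 101 by window midpoints. No paired analysis was possible because there is no other group to match by replicate number, and the contrasts themselves compare windows within each replicate. No p can fall below 0.25 here, and in single windows the depth cannot show a level under 1 RPKM in replicates 2 and 3.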

Other observations

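The spacers between the clusters, which hold no member window, differed from each other. Between alpha and beta (77.3 kb) H3K36me3 was 0.290, 0.209 and 0.075 RPKM in replicates 1, 2 and 3, no window was called for it, and 25 of 36 windows had no mark. Between beta and gamma (137 kb), which includes Taf7 and Slc25a2, it was 0.446, 0.573 and 0.465 RPKM, and 32 of 56 windows had no mark. The authors' filter had dropped 2 of 38 grid windows between alpha and beta and 13 of 69 between beta and gamma. The H3K27me3 run over the alpha constant exons (22 windows, 44 kb) ended within the first of these spacers at base 37198000.

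Outside the run at the gamma end, 1 gamma window was called for H3K36me3 (37700001 to 37702000). It had 1.09, 1.98 and 0.338 RPKM, lay between the variable exons of Pcdhga5 and Pcdhga6 and was also called for H3K27me3.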
